A study of Mus musculus with 20 samples.

Results

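Libraries of aortic endothelium with much and with little Gpnmb transcript were compared. The 20 libraries of the series were ranked by Gpnmb in FPKM (fragments per kilobase of gene, scaled to library size), whatever the treatment. The 6 highest formed the Gpnmb-high class and the 6 lowest the Gpnmb-low class, so 12 of the 20 libraries entered the comparison and 8 lay between the classes. Gpnmb was left out of the genes tested, because its own values made the classes.

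Every library came from 1 female mouse of strain B6.129P2-Apoetm1Unc/J (Apoe-/-), which lacks functional apolipoprotein E and develops plaques in its arteries. All mice, controls included, ate regular chow and had a 5/6 nephrectomy at 9 weeks of age, an operation that removes most of the kidney tissue. They received 1 retro-orbital injection 7 weeks later, and the endothelium was sheared from the aorta into lysis reagent 1 week after that. The 5 treatment groups of 4 mice were HDL + LNA92a + LNA489 (called dual), HDL + LNA489, HDL + LNA92a, HDL and saline. The LNAs are antisense oligonucleotides with locked nucleic acids, 1 against miR-92a-3p (LNA92a) and 1 against miR-489-3p (LNA489). Each was dosed at 20 mg/kg of body weight, so dual mice got 40 mg/kg in all, always with 4 mg of HDL. Libraries are named by treatment and animal number (Saline 9), and LNA92a and LNA489 stand for groups that also received HDL. Each animal number occurs once, and the p-values below measure the spread between mice.

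Gpnmb encodes a membrane glycoprotein that lipid-laden macrophages make in large amounts and that sits in their lysosomal and plasma membranes. Such foam cells take up modified lipoproteins through scavenger receptors, split the cholesteryl esters in lysosomes, store the freed cholesterol as ester droplets and export part of it to HDL through ABC transporters. Lysosomal genes of this program, Gpnmb included, are targets of the MiT family of transcription factors (Mitf, Tfeb, Tfe3 and Tfec). Gpnmb is also expressed in pigment cells.

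The Gpnmb-high libraries were Saline 9 (1584 FPKM), LNA489 13 (1461), Dual 21 (758), Dual 10 (580), Saline 2 (441) and Saline 24 (423). The Gpnmb-low libraries were HDL 11 (64.7 FPKM), LNA489 19 (64.0), LNA92a 17 (55.9), LNA92a 12 (37.5), HDL 4 (12.7) and LNA92a 5 (7.94). The class medians differed 14.3-fold, and the libraries held 34798 to 179561 Gpnmb reads in the Gpnmb-high class and 601 to 6234 in the Gpnmb-low class. The classes were chosen by these values, which carry no test. The upper limit fell between Saline 24 (423 FPKM) and HDL 3 (367), and the lower one between HDL 11 (64.7) and Saline 1 (68.4), so neither limit lay in a gap. The dual group gave 2 Gpnmb-high libraries and no Gpnmb-low one, LNA489 gave 1 and 1, LNA92a gave 0 and 3, HDL gave 0 and 2, and saline gave 3 and 0. Treatment and Gpnmb class can therefore not be told apart in most of the comparison, and the tests concern the relation of other genes to Gpnmb, not any treatment.

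**Figure D1:**
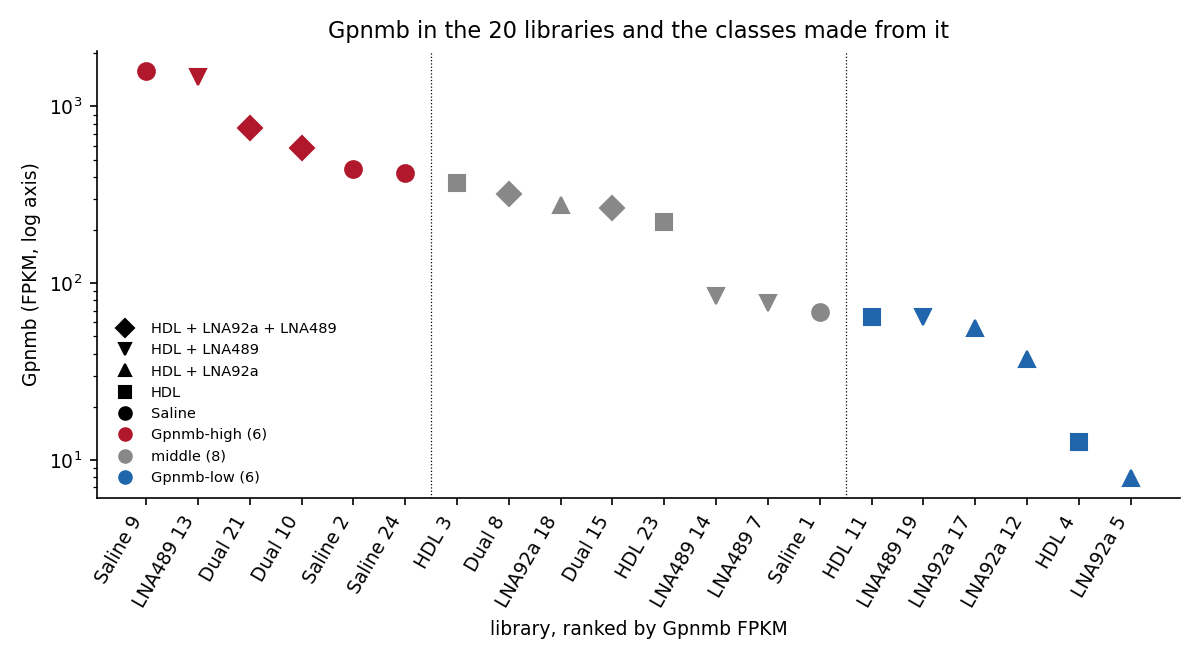
Gpnmb in FPKM (log axis) in each of the 20 libraries, ranked from high to low; colour gives the class, symbol the treatment, and dotted lines the class limits. The values fall without a break at either limit, from 1584 FPKM in Saline 9 to 7.94 FPKM in LNA92a 5.

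Assigned reads numbered 16.3 M ± 2.95 in Gpnmb-high and 14.2 M ± 2.39 in Gpnmb-low libraries (SD, n = 6 each; exact permutation p = 0.214, adjusted 0.214; M, mega). The 18S ribosomal RNA took 5.74% ± 3.24 and 12.1% ± 7.25 of them (exact permutation p = 0.0779, adjusted 0.214; the smallest p the 924 splits allow is 0.00216). Endothelial marker transcripts were present in every library, with a summed level of 354 to 3379 FPKM in Gpnmb-high and 112 to 1218 FPKM in Gpnmb-low libraries. Summed adipocyte markers reached 140 to 3652 FPKM and 455 to 6705 FPKM, so neither class was pure endothelium. HDL 11 stood apart in the Gpnmb-low class with a summed B and plasma cell level of 6866 FPKM (159 to 688 in the other 5) and the lowest fat signal of that class (455 FPKM). Saline 2 and Dual 10 stood apart in the Gpnmb-high class with summed adrenal cortex markers of 1919 and 1611 FPKM (2.68 to 5.15 in the other 4) and the highest fat signals (3652 and 2440 FPKM). In bulk RNA, fewer cells of a type and less RNA per cell cannot be told apart.

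Many more genes were higher than lower in the Gpnmb-high class. In limma's test on the deposited variance-stabilized log2 values, 625 of 16847 genes (3.71%) passed an adjusted p of 0.05. They comprised 546 higher (3.24%) and 79 lower (0.469%) genes. The median difference over all genes was 0.01 log2. Of the higher genes 124 differed by more than 2 log2 units, and of the lower ones 9. At an unadjusted p of 0.05 the split was even, with 1775 higher and 1818 lower. On log2(FPKM + 0.1), where the median of all genes moved by 0.38, the split was 932 higher and 21 lower. Single libraries moved these counts. Leaving out HDL 11 gave 1057 higher and 1248 lower genes, leaving out Saline 2 gave 810 and 744, and leaving out Dual 10 gave 468 and 121. Leaving out LNA489 13 gave 353 and 24. Without 1 of Saline 9, Saline 24, Dual 21, LNA489 19, LNA92a 5, LNA92a 12 or HDL 4, between 22 and 46 genes were lower. Over the 12 fits that each left out 1 library, 2.1% to 6.27% of all genes were higher and 0.131% to 7.41% lower, and in limma voom on recovered reads 2.51% and 0.338% were.

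Most foam cell markers moved with Gpnmb. Of the 23 tested members of that list 17 were higher in Gpnmb-high libraries (background 3.24%) and none was lower, with a median difference of 2.73 log2. In each of the 17 the lowest Gpnmb-high library exceeded the highest Gpnmb-low library on the log2 scale (background 2.6%). Overlap is given on that scale from here on unless FPKM is named. Trem2, the lipid-sensing receptor of plaque and tissue lipid-associated macrophages, spanned 15.6 to 57.6 FPKM (median 30.8) in Gpnmb-high libraries and 0.592 to 3.97 FPKM (median 2.82) in Gpnmb-low libraries. Spp1, which encodes osteopontin, spanned 130 to 2161 FPKM (median 586) and 5.49 to 63.7 FPKM (median 25.2). The classes did not overlap in either gene. Saline 9 was highest for Trem2 and LNA489 13 for Spp1, and LNA92a 5, last in Gpnmb, was lowest for both. The differences were 3.16 ± 0.37 log2 (SE, limma adjusted p = 0.000662) for Trem2 and 4.25 ± 0.68 (adjusted p = 0.00308) for Spp1.

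The largest difference among the genes that passed was that of Mmp12, the macrophage elastase, at 4.52 ± 0.58 log2 (limma adjusted p = 0.000973). It spanned 43.8 to 165 FPKM (median 78.1) in Gpnmb-high and 0.345 to 8.01 FPKM (median 3.78) in Gpnmb-low libraries. Itgax, the CD11c integrin chain, spanned 24.5 to 116 FPKM (median 48.4) and 0.645 to 9.6 FPKM (median 4.44), a difference of 3.52 ± 0.48 log2 (adjusted p = 0.00139). Both genes were lowest in LNA92a 5 and highest in Saline 9, and neither overlapped between the classes. Lgals3, the galectin long used as a plaque macrophage marker, spanned 177 to 675 FPKM (median 367) and 17.6 to 51.8 FPKM (median 33.4; difference 3.11 ± 0.31 log2, adjusted p = 0.000477). Cd68, the endosomal glycoprotein by which plaque macrophages are usually stained, spanned 129 to 405 FPKM (median 253) and 14.3 to 42.6 FPKM (median 24.1; 2.77 ± 0.28 log2, adjusted p = 0.000477). Every Gpnmb-high library held at least 129 FPKM of Cd68, against at most 42.6 FPKM in Gpnmb-low libraries. Fabp5 (2.78), Cd5l (4.24), Clec7a (3.39), Pld3 (2.73), Msr1 (2.35), Cd63 (1.69), Acp5 (1.76) and Cd9 (1.18) rose with them. These encode a fatty acid chaperone, a secreted macrophage survival factor, the beta-glucan receptor Dectin-1, a lysosomal nuclease, a scavenger receptor, an endosomal tetraspanin, an acid phosphatase and a surface tetraspanin.

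Several genes commonly taken for foam cell markers did not pass the test. Lpl, the lipoprotein lipase, spanned 70.4 to 257 FPKM (median 156) in Gpnmb-high and 18.8 to 239 FPKM (median 131) in Gpnmb-low libraries (0.29 ± 0.60 log2, limma adjusted p = 0.826). Cd36, the fatty acid and oxidized lipoprotein receptor, spanned 77.2 to 312 FPKM (median 222) and 26.5 to 219 FPKM (median 138; 0.54 ± 0.56 log2, adjusted p = 0.626). Both overlapped widely, and in the Gpnmb-low class both were lowest in HDL 11, the library with the least fat signal of that class, and highest in HDL 4. Adipocytes also express Lpl, Cd36 and the droplet coat gene Plin2. Plin2 spanned 54 to 187 FPKM and 18.4 to 56.4 FPKM (1.28 ± 0.38 log2, adjusted p = 0.0787). Ctsk (1.37), Hvcn1 (1.07) and Slamf9 (0.25) also did not pass, and Olr1 was too weak to be tested. The part of fat RNA in these values was not tested.

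**Figure D2:**
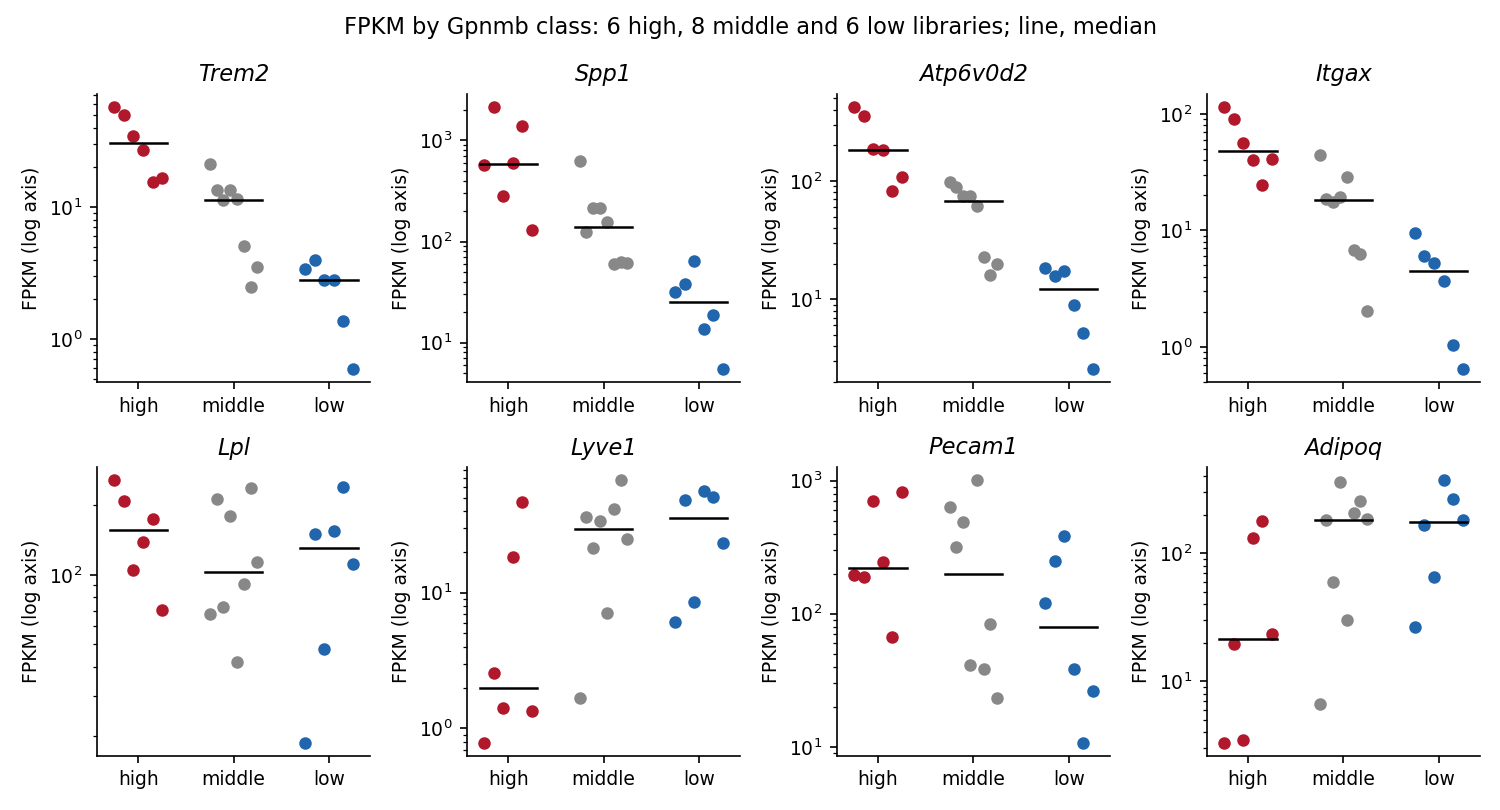
FPKM (log axis) of Trem2, Spp1, Atp6v0d2, Itgax, Lpl, Lyve1, Pecam1 and Adipoq in the 6 Gpnmb-high, 8 middle and 6 Gpnmb-low libraries, with 1 point per library and a line at the median. The first 4 genes do not overlap between the high and low classes (Trem2 15.6 to 57.6 against 0.592 to 3.97 FPKM), whereas Lpl, Lyve1, Pecam1 and Adipoq overlap.

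Promoters of 4 genes are shown because Gpnmb defined the classes and Trem2, Cd68 and Ctsd stood for the receptor, the endosomal marker and the lysosomal protease that rose with it. The windows run from 250 bases before to 50 bases after each annotated start, on the gene's strand, from RefSeq on GRCm38.p6. They lie at chr6:49036268-49036567 (plus strand, Gpnmb), chr17:48346151-48346450 (plus, Trem2), chr11:69666121-69666420 (minus, Cd68) and chr7:142387778-142388077 (minus, Ctsd). Capitals mark the motifs TGANTCA (AP-1) and CACGTG (the E-box that MiT factors can bind), searched on both strands.
Gpnmb: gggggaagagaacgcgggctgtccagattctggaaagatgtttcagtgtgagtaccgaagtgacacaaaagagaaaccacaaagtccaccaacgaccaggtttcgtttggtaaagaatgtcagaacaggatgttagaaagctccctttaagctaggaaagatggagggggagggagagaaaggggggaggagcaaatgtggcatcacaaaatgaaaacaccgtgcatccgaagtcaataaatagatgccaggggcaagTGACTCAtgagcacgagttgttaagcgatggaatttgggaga
Trem2: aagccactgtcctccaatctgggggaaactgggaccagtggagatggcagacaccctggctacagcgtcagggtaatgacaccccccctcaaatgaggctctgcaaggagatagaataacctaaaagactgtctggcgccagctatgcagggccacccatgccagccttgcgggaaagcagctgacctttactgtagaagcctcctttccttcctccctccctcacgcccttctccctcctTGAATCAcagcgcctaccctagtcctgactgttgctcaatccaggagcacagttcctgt
Cd68: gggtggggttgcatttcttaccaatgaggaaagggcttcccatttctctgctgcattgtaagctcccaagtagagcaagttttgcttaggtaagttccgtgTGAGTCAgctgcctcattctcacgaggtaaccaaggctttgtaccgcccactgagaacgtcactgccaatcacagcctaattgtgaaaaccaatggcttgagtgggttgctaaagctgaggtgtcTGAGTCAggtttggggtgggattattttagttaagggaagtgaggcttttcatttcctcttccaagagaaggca
Ctsd: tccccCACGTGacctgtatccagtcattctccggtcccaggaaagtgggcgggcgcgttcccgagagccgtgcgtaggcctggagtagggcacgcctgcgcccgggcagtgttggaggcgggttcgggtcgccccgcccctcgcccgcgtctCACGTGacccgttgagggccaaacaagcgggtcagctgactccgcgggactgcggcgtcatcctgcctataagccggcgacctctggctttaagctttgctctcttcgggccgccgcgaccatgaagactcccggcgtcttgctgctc
An AP-1 match began 8 bases after the start in Gpnmb, at -9 in Trem2, and at -149 and -24 in Cd68. Ctsd held E-boxes at -245 and -98. Over all 32851 RefSeq windows, 7.15% held an E-box, 7.81% an AP-1 match and 3.2% the PU.1 letters GAGGAAGT. Among the 559 windows of 423 genes higher in Gpnmb-high libraries these shares were 9.48%, 9.66% and 5.72%, and among the 13466 windows of tested genes 9.54%, 5.53% and 3.26%. The 75 windows of 59 genes lower in Gpnmb-high libraries gave 13.3%, 4% and 0%. The lysosomal protease list held an E-box in 8 of 24 windows, the proton pump list in 4 of 17 and the foam cell list in 3 of 23. An AP-1 match lay in 2 of 24, 1 of 17 and 5 of 23 windows of these lists, and the PU.1 letters in 2 of 24, 0 of 17 and 3 of 23. A match describes the letters only, and several windows can belong to 1 gene.

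The rule for named genes took the 15 largest called differences in each direction, among genes with a mean of at least 1 FPKM over the 20 libraries and a symbol other than Gm or Rik. Beyond the foam cell markers, the highest were Rnf128 (3.38 log2), Slc15a3 (3.33), Lhfpl2 (3.20), Ccdc148 (3.17), Mpeg1 (3.16), Stra6l (3.15) and Il1rn (3.09). Rnf128, a membrane-bound ubiquitin ligase, spanned 11.9 to 65.4 FPKM (median 23.8) in Gpnmb-high and 0.562 to 3 FPKM (median 1.58) in Gpnmb-low libraries (SE 0.38, limma adjusted p = 0.000572). Slc15a3, a lysosomal transporter of peptides and histidine, spanned 15.8 to 60.8 FPKM and 0.314 to 4.84 FPKM (SE 0.45, adjusted p = 0.00118). Mpeg1, the pore-forming perforin-2 of macrophages, spanned 163 to 687 FPKM (median 318) and 10.6 to 69.8 FPKM (median 29.8; SE 0.39, adjusted p = 0.000801). None of these 3 overlapped between the classes. Il1rn, the interleukin-1 receptor antagonist, spanned 3.73 to 25.7 FPKM and 0.079 to 1.4 FPKM (SE 0.44, adjusted p = 0.00162). Stra6l, a relative of the retinol-binding protein receptor, spanned 2.75 to 16.7 FPKM and 0.059 to 1.38 FPKM (SE 0.46, adjusted p = 0.00177). Exons of another annotated gene cover part of Slc15a3 (28.1% of its exonic bases), Spp1 (18.8%), Ctsd (34.4%), Ctsl (26.8%), Ctsb (12.8%), Pltp (19.3%), Ftl1 (34.6%), Il1a (11.2%) and Cxcl16 (18.3%). Among named genes that did not pass, such exons cover 68.7% of Itgam, 44.2% of Hvcn1, 15.5% of Ckm and 15.1% of Csf1r. The strand of counting is not given in the sources used here, so the reads of all these genes are uncertain.

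Many lysosomal genes rose. Of 28 tested proteases, lipases and membrane proteins 17 were higher (background 3.24%) and none lower, with a median of 1.35 log2. Ctss, the cathepsin of antigen-presenting cells, spanned 630 to 2063 FPKM (median 1186) in Gpnmb-high and 63.5 to 267 FPKM (median 125) in Gpnmb-low libraries (2.90 ± 0.35 log2, limma adjusted p = 0.000727). Ctsd, an aspartic protease, spanned 455 to 1471 FPKM (median 711) and 51 to 130 FPKM (median 96.8; 2.73 ± 0.30 log2, adjusted p = 0.000499). Lgmn, the asparagine-specific legumain, spanned 173 to 489 FPKM (median 332) and 22.5 to 63.9 FPKM (median 46.4; 2.46 ± 0.27 log2, adjusted p = 0.000499). In all 3 the classes stood apart. Ctsl (2.87) and Ctsb (2.59) differed as much, and so did Psap (2.47), the precursor of the saposins. Psap spanned 1708 to 5757 FPKM and 228 to 589 FPKM, with no overlap. Lipa, the acid lipase that splits lipoprotein cholesteryl esters, spanned 104 to 409 FPKM (median 182) and 19.6 to 40.2 FPKM (median 31.1; 2.35 ± 0.30 log2, adjusted p = 0.000976).

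Not every lysosomal gene followed. The cholesterol exporters of the lysosome, Npc1 (0.75 ± 0.26 log2, limma adjusted p = 0.118) and Npc2 (0.86 ± 0.23, adjusted p = 0.0578), did not pass. The membrane protein Lamp1 rose by 0.97 ± 0.25 log2 (adjusted p = 0.0446), while Lamp2 (0.39), Ctsc (0.57), Ctsf (-0.24), Ctso (-0.08) and the cathepsin inhibitor Cst3 (-0.02) did not pass. Of the proton pump that acidifies the lysosome, 10 of 18 tested subunits were higher (background 3.24%) and none lower. The median of the 18 was 0.98 log2. Atp6v0d2, the d2 subunit of osteoclasts and activated macrophages, had the largest difference of the 18. It spanned 81.6 to 426 FPKM (median 185) in Gpnmb-high and 2.57 to 18.3 FPKM (median 12.2) in Gpnmb-low libraries (3.85 ± 0.45 log2, adjusted p = 0.000662). Its widely expressed counterpart Atp6v0d1 spanned 29.9 to 81.7 FPKM and 17.7 to 36.6 FPKM (0.65 ± 0.23 log2, adjusted p = 0.139). Tcirg1, the a3 subunit of the osteoclast pump, followed at 2.14 ± 0.32 log2 (adjusted p = 0.00212), and Atp6v1b2 (1.81) and Atp6v1a (1.55), of the catalytic V1 head, also rose.

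Among the MiT factors and genes of lysosomal stress, 4 of 14 tested genes were higher (background 3.24%) and none lower. The median of the 14 was 0.35 log2. Tfec, the MiT member largely restricted to macrophages, spanned 1.39 to 4.88 FPKM (median 2.88) in Gpnmb-high and 0.079 to 0.834 FPKM (median 0.302) in Gpnmb-low libraries (2.02 ± 0.30 log2, limma adjusted p = 0.00202). Mitf spanned 2.45 to 10.2 FPKM (median 5.9) and 2.26 to 5.62 FPKM (median 3.86; 0.14 ± 0.33 log2, adjusted p = 0.856), and its sign turned in 5 alternatives. Tfeb (0.33 ± 0.26, adjusted p = 0.502), whose sign turned with an adipocyte or an endothelial term, and Tfe3 (0.57 ± 0.21, adjusted p = 0.138) did not pass. Of the 4 transcription factors, the transcript of Tfec alone passed. Fnip2 (2.25 ± 0.33) and Rragd (1.82 ± 0.32), parts of the nutrient-sensing machinery at the lysosome, and the lysosomal cation channel gene Tpcn2 (1.50 ± 0.23) were the other genes that rose.

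Cholesterol handling was uneven. Of 17 tested genes of efflux and the LXR response 6 were higher (background 3.24%) and none lower, with a median of 0.64 log2. Abcg1, which exports cholesterol to HDL, spanned 72.3 to 284 FPKM (median 123) in Gpnmb-high and 10.2 to 66.2 FPKM (median 19.7) in Gpnmb-low libraries (2.27 ± 0.36 log2, limma adjusted p = 0.00286). Abca1, which loads apolipoprotein A-I, spanned 121 to 345 FPKM (median 155) and 33.7 to 66.9 FPKM (median 47; 1.55 ± 0.27 log2, adjusted p = 0.00454). Both classes stood apart in each transporter, with HDL 11 highest among the Gpnmb-low libraries. Nceh1 (2.19 ± 0.28), a neutral cholesteryl ester hydrolase, Pltp (1.75 ± 0.30), the phospholipid transfer protein, and Scd2 (0.67 ± 0.17), a desaturase, rose as well. The LXR genes Nr1h3 (0.77 ± 0.24, adjusted p = 0.1) and Nr1h2 (-0.13 ± 0.13, adjusted p = 0.6) did not pass. Apoe spanned 8.14 to 26 FPKM and 2.31 to 8.92 FPKM (1.22 ± 0.31 log2, adjusted p = 0.0436). All mice carry the Apoe deletion and no wild type was sequenced, so these residual reads do not check the genotype, and where in the gene they lie was not analysed here.

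Of 14 scavenger receptor and ester storage genes 4 were higher (background 3.24%) and none lower. Besides Cd68 and Msr1 they were Soat1, which esterifies cholesterol for storage (20.7 to 66.5 FPKM in Gpnmb-high against 3.25 to 11.2 FPKM in Gpnmb-low libraries; 2.21 ± 0.27 log2, limma adjusted p = 0.000769), and Mertk, a receptor for apoptotic cells (2.16 ± 0.28). No gene of the 23 tested in cholesterol synthesis and uptake passed in limma or in voom, with a median of -0.11 log2. At an unadjusted p of 0.05, 1 was higher and 3 were lower.

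Matrix proteases and genes shared with osteoclasts gave 8 higher (background 3.24%) and 0 lower of 12 tested, with a median of 1.54 log2. Mmp12 is counted both here and among the foam cell markers. Adam8, a membrane metalloprotease, spanned 15.5 to 61.6 FPKM (median 36.5) in Gpnmb-high and 1.08 to 5.12 FPKM (median 3.91) in Gpnmb-low libraries (2.98 ± 0.37 log2, limma adjusted p = 0.000802). Mmp13, a collagenase, spanned 2.23 to 11.2 FPKM and 0 to 0.607 FPKM (2.83 ± 0.37 log2, adjusted p = 0.001). Neither gene overlapped between the classes. Mmp14 (1.40), Mmp8 (2.05), the RANK receptor gene Tnfrsf11a (1.68) and the beta-3 integrin gene Itgb3 (0.99) also rose. Mmp9, a gelatinase, ran the other way without passing, at 0.227 to 3.46 FPKM and 0.443 to 11.7 FPKM (-1.55 ± 0.67 log2, adjusted p = 0.206). The osteoclast fusion genes Dcstamp and Ocstamp, with Oscar and Calcr, were too weak to be tested.

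Inflammatory genes gave 4 higher (background 3.24%) and 0 lower of 13 tested. Ccl3, a chemokine for leukocytes, spanned 14.8 to 52 FPKM (median 30.5) in Gpnmb-high and 0.328 to 3.53 FPKM (median 1.94) in Gpnmb-low libraries (2.61 ± 0.31 log2, limma adjusted p = 0.000711). Its relative Ccl4 (1.85 ± 0.28), Il1a (3.03 ± 0.43), which encodes interleukin-1 alpha, and the antagonist Il1rn were the others. Il1b (1.08 ± 0.39, adjusted p = 0.135), Tnf (0.62 ± 0.47, adjusted p = 0.483) and Nlrp3 (0.70 ± 0.30, adjusted p = 0.204) did not pass. The monocyte genes Ly6c2 (-0.15) and Ccr2 (-0.27) lay near 0. Il6, Cxcl2 and Nos2 were too weak to be tested. Of 18 genes of heme, iron and antioxidant defence 6 were higher (background 3.24%) and none lower. Hmox1, which degrades heme, spanned 48.9 to 228 FPKM (median 119) and 8.67 to 24.6 FPKM (median 16.5; 2.35 ± 0.34 log2, adjusted p = 0.00175). The iron exporter Slc40a1 (2.50 ± 0.35), the ferritin chains Ftl1 (1.95 ± 0.29) and Fth1 (1.49 ± 0.33), and the redox enzymes Gsr (1.02) and Txnrd1 (0.98) were the rest, while Nqo1 (0.08), Gclc (-0.14) and Gclm (0.30) did not pass.

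General macrophage markers also rose in part. Of 20 tested 13 were higher (background 3.24%) and none lower, with a median of 1.61 log2. Lyz2, the macrophage lysozyme, spanned 2361 to 8453 FPKM (median 4715) in Gpnmb-high and 418 to 1004 FPKM (median 576) in Gpnmb-low libraries (2.44 ± 0.33 log2, limma adjusted p = 0.00118). Tyrobp (2.15), the signalling partner of Trem2, Fcer1g (2.06), C1qb (2.13), C1qc (1.91) and Spi1 (1.53), which encodes the macrophage factor PU.1, rose too. Adgre1, which encodes the F4/80 antigen, overlapped between the classes at 10.9 to 32.1 FPKM and 5.31 to 22.8 FPKM (0.68 ± 0.38, adjusted p = 0.323), and its sign turned in the slope over 20 libraries with a treatment term. Csf1r (0.25 ± 0.36, adjusted p = 0.739), Cd14 (0.14), Itgam (0.45) and the pan-leukocyte gene Ptprc (0.41) did not pass. Among Gpnmb-low libraries Ptprc was highest in the B cell-rich HDL 11 (96.5 FPKM) and lowest in HDL 4 (4.01 FPKM).

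Resident adventitial macrophage markers mostly had lower means in the Gpnmb-high class. Of 16 tested none passed between the classes in limma or voom, with a median of -1.14 log2, and at an unadjusted p of 0.05, 1 was higher and 5 were lower. Lyve1, the hyaluronan receptor of these cells and of lymphatic vessels, spanned 0.788 to 46.3 FPKM (median 1.99) in Gpnmb-high and 6.11 to 55.9 FPKM (median 35.4) in Gpnmb-low libraries (-2.53 ± 0.88 log2, limma adjusted p = 0.126). Cd163, the hemoglobin scavenger receptor, spanned 0.42 to 60.2 FPKM (median 1.11) and 1.6 to 60.6 FPKM (median 38.1; -2.88 ± 1.14, adjusted p = 0.171), and its sign turned with an adipocyte term. Saline 2 was the highest of the Gpnmb-high class in both genes and HDL 11 the lowest of the Gpnmb-low class. Without Saline 2, 5 of the 16 were lower (background in that fit 4.42%), and without HDL 11, 2 were (background 7.41%). When the 20 libraries were ranked by other genes, the top 6 by Trem2, Spp1, Mmp12, Itgax or Atp6v0d2 each shared 5 with the Gpnmb-high class. The top 6 by Lyz2 shared 6, and the top 6 by Cd68 or Adgre1 shared 4. The top 6 by Pecam1 shared 2, by Lyve1 or Cd163 1, and by Adipoq 0.

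**Figure D3:**
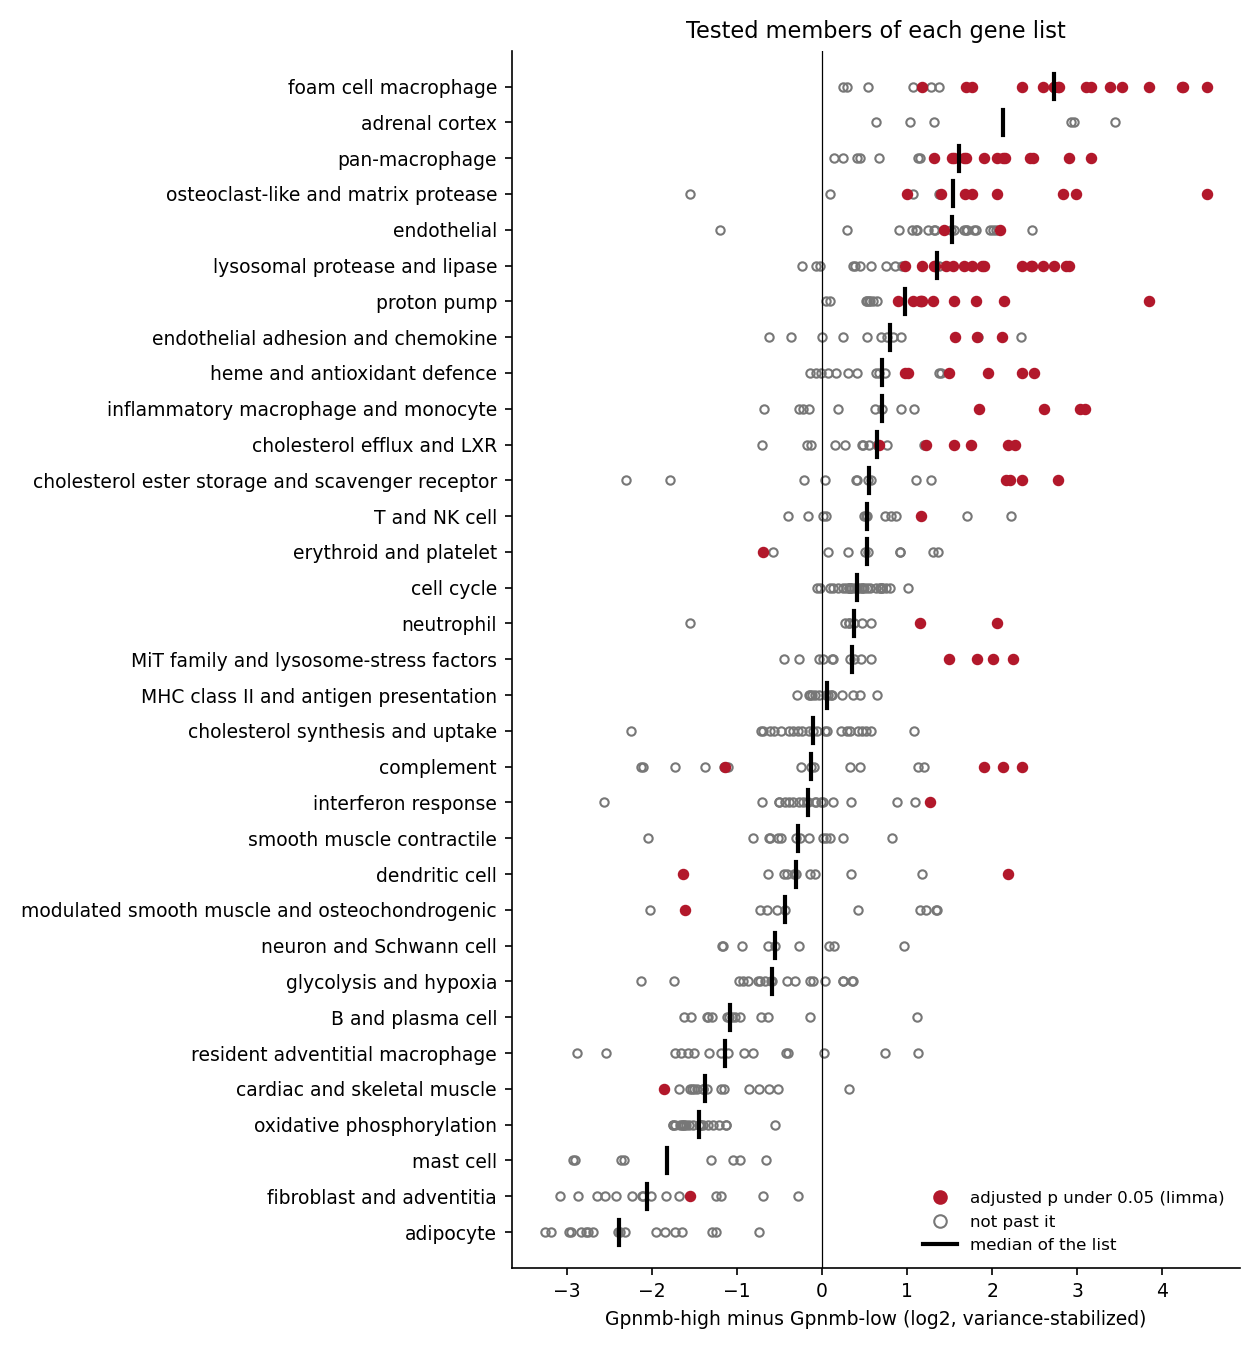
Difference of mean log2 values, Gpnmb-high minus Gpnmb-low, for each tested member of 33 gene lists (1 point per gene, filled where the limma adjusted p is under 0.05, bar at the list median), ordered by median. Lists with under 5 tested members are left out. Foam cell, pan-macrophage, protease, lysosomal and proton pump lists lie to the right with most of their points filled, and adipocyte, fibroblast, mast cell and oxidative phosphorylation lists lie to the left with 1 filled point among them.

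Cilp and Hmcn2 had the largest lower differences taken by the rule. Cilp, a cartilage and adventitial matrix protein, was found at 0 to 4.56 FPKM (median 0.12) in Gpnmb-high and 2.35 to 58.7 FPKM (median 11.8) in Gpnmb-low libraries (-4.05 ± 0.85 log2, limma adjusted p = 0.0162). Hmcn2, the basement membrane protein hemicentin-2, spanned 0.093 to 2.18 FPKM (median 0.271) and 0.404 to 16.3 FPKM (median 5.98; -3.33 ± 0.82 log2, adjusted p = 0.0384). Both were highest of the Gpnmb-high class in Saline 2 and lowest of the Gpnmb-low class in HDL 11, and the classes overlapped. Mmrn1 (-2.85), Myoc (-2.65), Igfbp6 (-2.26), Rassf6 (-2.14), C1qtnf3 (-2.04), Ablim3 (-1.96), Sh3tc2 (-1.90), Irf4 (-1.87), Ebf1 (-1.87), Myh2 (-1.85), Lepr (-1.84) and Pard6b (-1.80) overlapped as well. They include Igfbp6, an insulin-like growth factor binding protein, C1qtnf3, an adipokine, Lepr, the leptin receptor, and Ebf1 and Irf4, transcription factors of B cells and adipocytes. Within the Gpnmb-low class Ebf1 and Irf4 were highest in the B cell-rich HDL 11. Angptl1, a secreted angiopoietin-like protein, was the only 1 of the 15 whose classes did not overlap (background 0.38%), at 0.251 to 1.98 FPKM (median 1.01) and 2.36 to 13.3 FPKM (median 5.12; -2.02 ± 0.34, adjusted p = 0.00394). Exons of another gene cover 16.4% of Angptl1 and 4.48% of Myoc.

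Adipocyte, fibroblast, mast cell and oxidative phosphorylation genes had lower means in the Gpnmb-high class. None of 18 adipocyte genes passed in limma or voom with all 12 libraries, although every one had a lower mean (median -2.38 log2) and 14 were lower at an unadjusted p of 0.05. Adipoq, the adipocyte hormone adiponectin, spanned 3.33 to 180 FPKM (median 21.6) in Gpnmb-high and 26.5 to 373 FPKM (median 175) in Gpnmb-low libraries (-2.70 ± 0.96, limma adjusted p = 0.133). Ucp1, the uncoupling protein of brown fat, spanned 11.1 to 538 FPKM (median 43) and 57.2 to 1229 FPKM (median 576; -2.97 ± 1.06, adjusted p = 0.135). In both genes HDL 11 was the lowest Gpnmb-low library. Without HDL 11, where 7.41% of all genes were lower, 15 of the 18 adipocyte genes passed as lower. Without Saline 2, where 4.42% were, 11 did. The same held for 21 oxidative phosphorylation genes, of which 0 passed in limma or voom (median -1.45 log2, 20 lower at an unadjusted p of 0.05), 20 without HDL 11 and 16 without Saline 2. Of 16 fibroblast genes 1 was lower (background 0.469%), the peptidase gene Dpp4 (2.9 to 16.3 against 10.7 to 23.6 FPKM; -1.55 ± 0.34, limma adjusted p = 0.0212), with 12 lower without HDL 11, 9 without Saline 2 and none without Saline 9, HDL 4, LNA92a 5 or Dual 21. Decorin, Dcn, spanned 67.9 to 831 FPKM and 201 to 1303 FPKM (limma adjusted p = 0.131). Of 8 mast cell genes 0 passed in limma or voom (median -1.82 log2, 7 lower at an unadjusted p of 0.05), 3 without HDL 11 and 5 without Saline 2. The part of fat and adventitia caught with the endothelium in these differences was not tested.

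**Figure D4:**
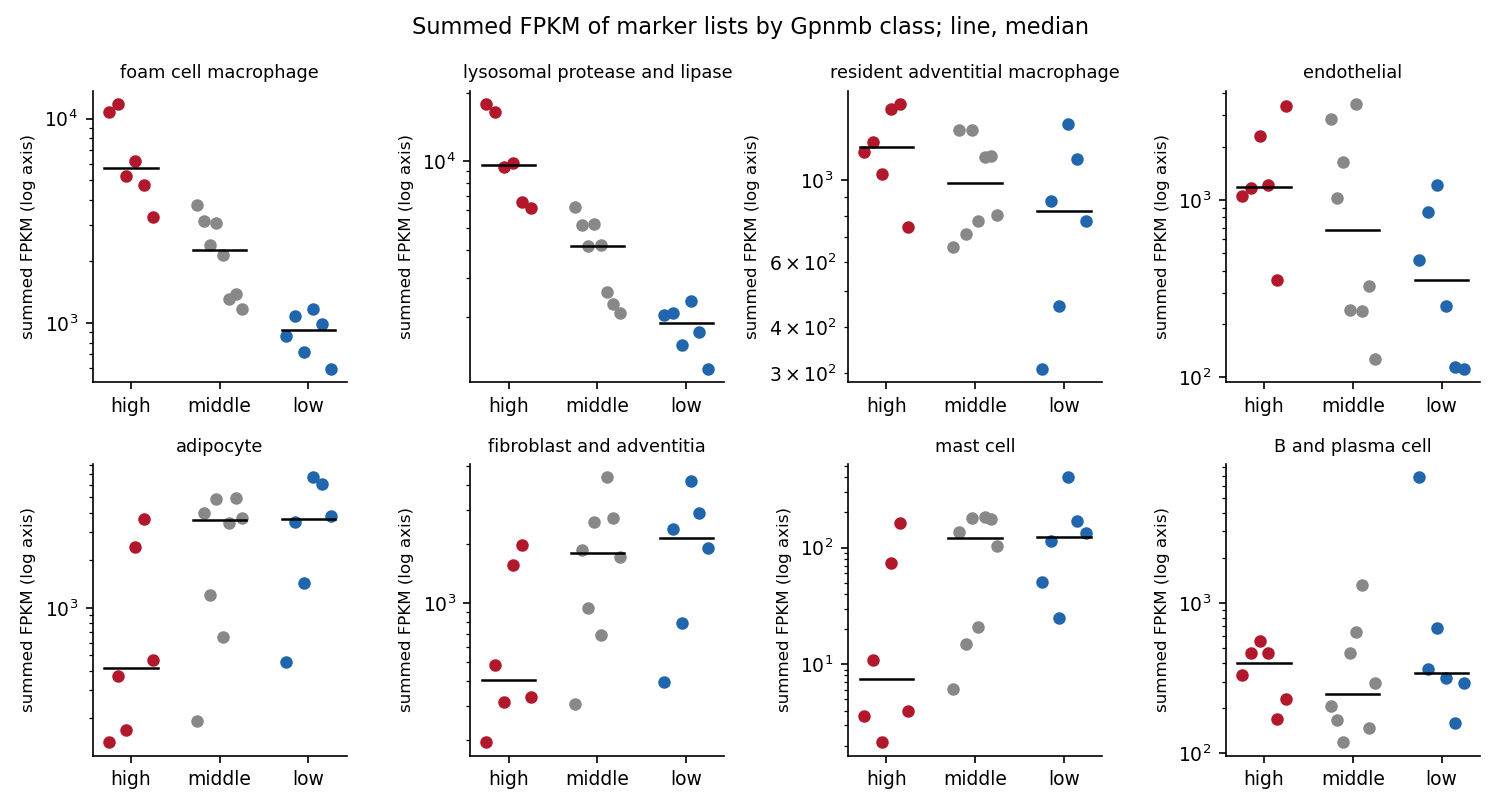
Summed FPKM (log axis) of 8 marker lists in the 6 Gpnmb-high, 8 middle and 6 Gpnmb-low libraries, with 1 point per library and a line at the median. Foam cell sums of 3289 to 11829 FPKM in the high class lie above the 595 to 1176 FPKM of the low class, lysosomal sums do not overlap either, and the other 6 lists do, with HDL 11 the high point of the B and plasma cell panel at 6866 FPKM.

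Nearly all endothelial markers had higher means, 21 of 22 tested. Of the 22, 2 were higher (background 3.24%) and none lower by the test, with a median of 1.53 log2, and 16 were higher at an unadjusted p of 0.05. Plvap, a diaphragm protein of fenestrated endothelium, spanned 33.8 to 120 FPKM (median 96.7) in Gpnmb-high and 4.68 to 27.9 FPKM (median 20.5) in Gpnmb-low libraries (2.10 ± 0.39, limma adjusted p = 0.00687), and Emcn, the sialomucin endomucin, differed by 1.43 ± 0.29 (adjusted p = 0.0135). Emcn spanned 5.35 to 12.9 FPKM and 1.05 to 3.58 FPKM. In FPKM neither gene overlapped between the classes, and on the log2 scale both did. Pecam1, the adhesion molecule of endothelial junctions, spanned 66.5 to 825 FPKM (median 220) and 10.8 to 382 FPKM (median 79.1; 1.51 ± 0.83, adjusted p = 0.314). Vwf, the clotting factor stored in endothelium, spanned 29.2 to 316 FPKM and 3.02 to 109 FPKM (2.05 ± 0.80, adjusted p = 0.165). Both signs turned with the endothelial list mean as a term, and that of Pecam1 with treatment as a term. Both genes are part of that list mean, so some members must turn in that fit, and nothing is read from the turn. Without Saline 2, the Gpnmb-high library with the least endothelial signal (354 FPKM), 9 of the 22 were higher (background in that fit 4.81%), and without LNA92a 17, the Gpnmb-low library with the most (1218 FPKM), 8 were (background 3.42%).

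Foam cell and lysosomal calls were counted again beside the endothelial, fat and 18S signals. With the endothelial list mean as a term 16 of the 23 foam cell genes and 16 of the 28 lysosomal genes were higher, with the adipocyte list mean 19 and 17, and with the 18S share 16 and 14. Over all genes 1.55%, 1.94% and 1.28% were higher in these fits. Over the 12 fits that each left out 1 library, 17 to 19 foam cell and 16 to 19 lysosomal genes were higher. Over all genes the counts moved further, to 261 higher and 0 lower with the endothelial term (1773 at an unadjusted p of 0.05), of which 245 had been called higher before. Endothelial adhesion and chemokine genes gave 3 higher (background 3.24%) and 0 lower of 14. These were Cxcl16 (1.82 ± 0.27, limma adjusted p = 0.0019), a chemokine that also binds oxidized lipoprotein, Cx3cl1 (1.56 ± 0.36, adjusted p = 0.0279), or fractalkine, and Sele (2.11 ± 0.52, adjusted p = 0.0381), or E-selectin. Vcam1 spanned 12.3 to 84.7 FPKM and 3.28 to 22.4 FPKM (1.84 ± 0.49, adjusted p = 0.0581). Cxcl16 alone of the 3 did not overlap between the classes (14.8 to 51.3 against 3.93 to 13.2 FPKM). With the endothelial term 1 of the 14 was higher, and voom called 2. Leaving out Saline 2 or LNA92a 17 gave 5 higher and leaving out HDL 11 gave 4. Without any 1 of Dual 10, Dual 21, LNA489 13, LNA92a 5, LNA92a 12 or HDL 4, 1 was higher, and without Saline 9 or Saline 24, 2 were.

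Contractile smooth muscle gave 0 calls of 14 in limma and voom (1 lower at an unadjusted p of 0.05), with Acta2 at 30.6 to 194 FPKM in Gpnmb-high and 12 to 77.2 FPKM in Gpnmb-low libraries (0.82 ± 0.51, limma adjusted p = 0.374) and Myh11 at 2.55 to 12.5 and 3.63 to 14.7 FPKM (-0.51 ± 0.35, adjusted p = 0.429). B and plasma cell genes gave 0 of 14 (0 higher and 1 lower unadjusted, 0 in voom; median -1.08 log2, and -0.41 without HDL 11). Cell cycle genes gave 0 of 29 (1 higher unadjusted, 0 in voom; median 0.41), and MHC class II and antigen presentation genes 0 of 14 (1 higher unadjusted, 0 in voom; median 0.06). Glycolysis genes gave 0 of 19 (5 lower unadjusted, 0 in voom; median -0.59), and neuron and Schwann cell genes 0 of 9 (3 lower unadjusted, 0 in voom; median -0.55). Adrenal genes gave 0 of 6 (0 unadjusted and 0 in voom), although all 6 had a higher mean (median 2.12 log2) with the sums of Saline 2 and Dual 10 given above. With an adipocyte term 4 of the 6 adrenal genes were higher (background 1.94%) and 5 of the 14 B and plasma cell genes lower (background 0.534%). Single calls, against a background of 3.24% higher and 0.469% lower, were Gzmb (1.17) among 13 T and NK cell genes, Rsad2 (1.27) among 20 interferon genes, Alpl (-1.61) among 11 modulated smooth muscle genes, Myh2 among 16 striated muscle genes and Itga2b (-0.69) among 10 erythroid and platelet genes. Dendritic cell genes gave Sirpa higher (2.19) and Siglech lower (-1.63) of 11, and neutrophil genes gave Mmp8 and Csf3r (1.15) higher of 9, with 1 higher without Saline 9, LNA489 13 or LNA92a 5. Several of these counts moved when 1 library was left out. Voom called no T and NK cell gene, and a call was made there without Saline 2, HDL 11 or LNA92a 17 but not without any other 1 library. The erythroid and platelet list gave a lower call in voom, and among the fits with 1 library left out only without Saline 2 or HDL 11. Interferon genes gave no higher call without Saline 9, LNA489 13, LNA489 19, Dual 10, Dual 21, LNA92a 12 or HDL 4. The modulated smooth muscle list gave no lower call without LNA489 13, Dual 21 or LNA92a 5. Striated muscle and dendritic cell lists gave at least these calls in voom and without any 1 library. Complement gave 3 higher, C3ar1 (2.35), C1qb and C1qc, and 1 lower, Cd55 (-1.14), of 17, against the same background. Voom gave the same counts, and the lower complement calls numbered 6 without Saline 2, 4 without HDL 11, 2 without Dual 10, 1 without LNA92a 17 and 0 without any 1 of the other 8. The higher ones numbered 5 without Saline 24, HDL 11 or LNA92a 12 and 3 or 4 otherwise. Melanocyte markers, checked because pigment cells express Gpnmb, summed to 0.26 to 1.57 FPKM and 1.02 to 3.12 FPKM, with Pmel the only 1 tested (-0.71).

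The 8 libraries between the classes did not enter the class test, but the same Gpnmb ranking placed them there. Their Gpnmb ran from 68.4 to 367 FPKM, with a gap between HDL 23 (222 FPKM) and LNA489 14 (84.8 FPKM). Each gene was fitted for its slope on the log2 value of Gpnmb. Because of the gap, the slope rests largely on LNA489 14, LNA489 7 and Saline 1 against the other middle libraries. The slope thus uses Gpnmb again and is not independent of the rule. On the log2 scale LNA92a 17 of the Gpnmb-low class (12.88) lay above the middle libraries LNA489 14 (12.74) and Saline 1 (12.83). Of the 546 genes higher in the Gpnmb-high class, 535 (98.0%) had a positive slope there, and of the 79 lower genes, 75 (94.9%) had a negative one, while 50.7% of all tested genes had a positive slope. By list, the median slope was steeper for endothelial genes (1.24, 21 of 22 positive) than for foam cell (0.64, 21 of 23) or lysosomal genes (0.27, 25 of 28). For adipocyte genes it was -0.86, with 0 of 18 positive. The slope passed in 16 genes (0.095%), all positive and none of them from the endothelial list, and at an unadjusted p of 0.05 in 1845. Atp6v0d2 led with 1.03 ± 0.09 log2 per log2 unit of Gpnmb (SE, n = 8; limma adjusted p = 0.00838), at 16 FPKM in LNA489 7 and 98.5 FPKM in HDL 3. Lgals3 (0.88 ± 0.10), Clec7a (1.13 ± 0.13) and Ctss (0.91 ± 0.11) followed, each with an adjusted p of 0.0255, as did Gusb (0.75 ± 0.08), the lysosomal beta-glucuronidase. Clec1b, the podoplanin receptor CLEC-2, had the steepest slope of the 16 (1.30 ± 0.16, adjusted p = 0.0313). Trem2 (0.93 ± 0.12, adjusted p = 0.0318), Mfge8 (0.90), which bridges apoptotic cells to phagocytes, Pld3 (0.81), Fcgr4 (0.94), Csf2rb2 (0.72), Gpr137b (0.70), Cd5l (0.92), Mpeg1 (0.76) and Cd300a (0.90) completed the 15 that were also higher between the classes. Il7r, the interleukin-7 receptor, passed in the middle libraries only (0.87 ± 0.12, adjusted p = 0.0382). Between the classes it overlapped, since HDL 11 held 43.1 FPKM against a class median of 6.78 (2.23 ± 0.62, adjusted p = 0.0652). HDL 11, rich in B cell transcripts, also had the highest T and NK cell sum of its class (556 FPKM), from a list that includes Il7r. The slope calls depended on every library: without Dual 15, 8 genes passed, and without any other 1 of the 8, 0 or 1 did, while the slopes of the 16 genes stayed between 0.66 and 1.40.

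**Figure D5:**
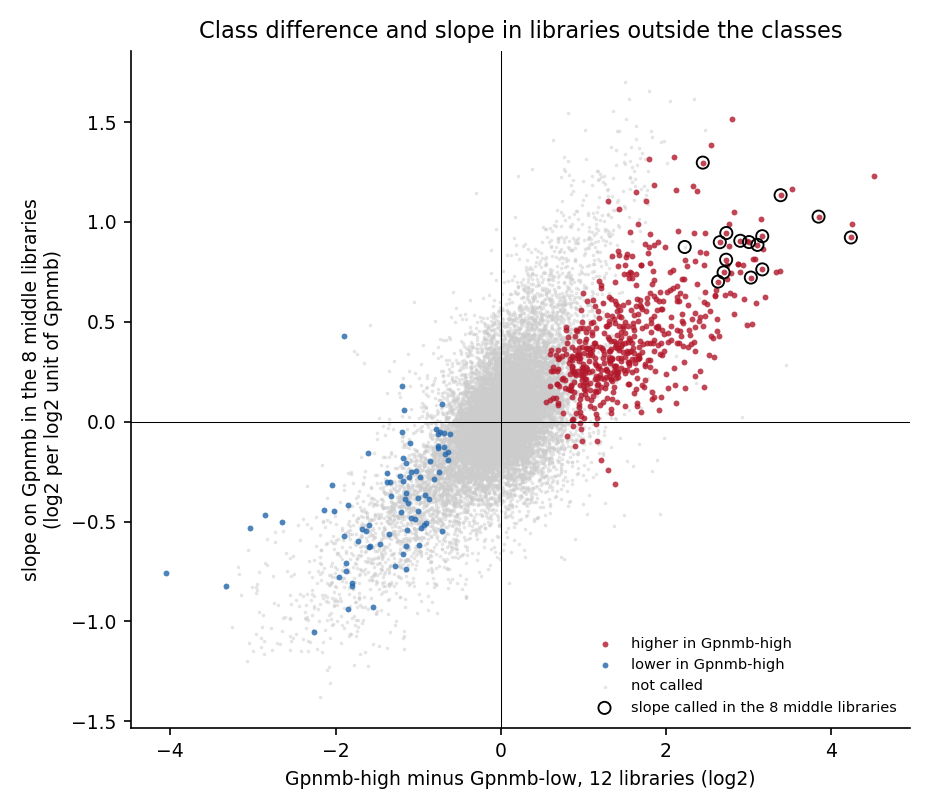
Slope on Gpnmb in the 8 middle libraries (log2 per log2 unit) against the difference between the classes (log2, 12 libraries) for each tested gene, with genes higher or lower in Gpnmb-high libraries in colour and the 16 genes with a called slope circled. Of the 546 higher genes 535 lie above 0 and of the 79 lower genes 75 lie below 0.

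Treatment was set beside Gpnmb in 2 ways. With treatment as a term in the 12 libraries, limma called 0 genes (676 at an unadjusted p of 0.05), since LNA489 is the only treatment with both classes and the contrast then rests on LNA489 13 against LNA489 19. This pair has no replicate. Trem2 had 49.7 FPKM in LNA489 13 and 3.97 FPKM in LNA489 19, Spp1 2161 and 37.9 FPKM, Atp6v0d2 355 and 15.6 FPKM, and Lyz2 8453 and 652 FPKM. For these 4 genes LNA489 13 was far above LNA489 19. Other genes did not follow: Ucp1 had 33.2 FPKM in LNA489 13 and 476 FPKM in LNA489 19, and Cd163 1.00 and 44.6 FPKM. Lpl (0.20 log2) and Csf1r (0.35 log2) differed little between the 2 libraries. With treatment as a term in a slope over all 20 libraries, 1846 genes (11%) rose with Gpnmb and 1964 (11.7%) fell. Of the 546 genes higher between the classes 526 were among the rising, and of the 79 lower ones 69 among the falling. Of the lists, 19 of the 23 foam cell genes, 19 of the 28 lysosomal genes and 20 of the 22 endothelial genes rose, and 18 of the 18 adipocyte genes, 21 of the 21 oxidative phosphorylation genes, 13 of the 16 fibroblast genes and 7 of the 8 mast cell genes fell. Resident adventitial macrophage markers gave 1 rising and 10 falling of 16. This slope shares its 12 outer libraries with the class comparison. Without the 3 saline libraries, all of them Gpnmb-high, 343 genes were higher and 16 lower, and 16 of the 23 foam cell genes were higher (background 2.04%).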

How the data were processed

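The authors deposited variance-stabilized counts on a log2 scale for 20442 genes and FPKM for 32081 genes, both for all 20 libraries. The submitters' processing notes name build GRCm38.p5 and, in no stated order, DESeq2 1.18.1, featureCounts 1.15.29, STAR 2.5.3a, cutadapt 1.16 and FastQC. The strand of counting is not given in the sources used here. The deposited FPKM gave whole reads with the gene lengths (100% of values checked within 0.1), used only for depth (11.6 to 21.4 M assigned reads) and for voom.

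Libraries were ranked by Gpnmb FPKM and the 6 highest compared with the 6 lowest in limma 3.58.1 (R 4.3.3) on the deposited log2 values of 16847 genes with a mean FPKM of at least 0.5, Gpnmb left out, with no covariate and Benjamini-Hochberg adjustment over all of them. Differences are Gpnmb-high minus Gpnmb-low. A slope on log2 Gpnmb was fitted in the 8 middle libraries. Library properties were compared by a two-sided exact permutation test, adjusted over 3 properties. Fits were tested on simulated data. Alternatives were other scales, filters, class sizes and covariates, limma voom with TMM factors on the recovered reads, and libraries left out. Those without the saline libraries or without single middle libraries were chosen after seeing the data.

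The members and the gene lists were chosen with earlier results of these data known. Genes named are the 15 largest called differences in each direction (mean of at least 1 FPKM, symbols other than Gm or Rik), up to 4 of each list by p and a fixed set; other list members and the 16 slope genes were named after their values were seen. Some list members are counted but not reported singly here. Lists share members, such as Atp6v0d2 in the foam cell and proton pump lists, so a gene can be counted in several lists. Exon overlap is from GENCODE M21 on GRCm38, and promoters from RefSeq.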

Additional observations from a re-analysis of the deposited data

Results flagged for a closer look

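In 162 groups of 6 or 8 libraries (named genes and library properties in each class), the highest or lowest library was checked for its gap to the next, relative to the whole range. Chance alone gives about 1 in 20, and 4 of the 162 groups passed, a smaller share than that. The 4 are therefore given as values only. Saline 2 had 12.0% of its reads in 18S ribosomal RNA, against 3.25% to 6.05% in the other 5 Gpnmb-high libraries. In Sh3tc2, HDL 11 had a log2 value of 6.42, against 7.55 to 8.17 in the other 5 Gpnmb-low libraries. HDL 3, the middle library with the most Gpnmb, had a log2 value of 6.66 for Igfbp6, against 10.09 to 12.69 in the other 7 middle libraries. HDL 3 had 4.81 for Pard6b, against 7.22 to 9.33 in the other 7. Igfbp6, Sh3tc2 and Pard6b are all among the 15 largest lower genes.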

How the results depend on the processing

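The 625 genes (546 higher, 79 lower) became 953 on log2(FPKM + 0.1) (932 and 21), 979 on log2(FPKM + 1) (954 and 25), 416 with an adipocyte term (326 and 90), 261 with an endothelial term (261 and 0), 227 with an 18S term (216 and 11), 0 with a treatment term (0 and 0), 1041 with ranks from the log2 Gpnmb values (805 and 236), 1685 with 5 against 5 libraries (932 and 753), 1994 with 8 against 8 (1146 and 848), 3165 as a slope over 20 libraries (1491 and 1674), 3810 as that slope with treatment (1846 and 1964) and 359 without saline (343 and 16). With 1 of the 12 libraries left out, 377 to 2305 genes passed, 353 to 1057 higher and 22 to 1248 lower. The 16 slopes in the middle libraries became 29 on log2(FPKM + 0.1) and 0 to 8 with 1 library left out. None of the 90 named genes that passed turned sign under any alternative run, but 90 of them lost the call with the treatment term, 28 with the endothelial, 27 with the adipocyte and 26 with the 18S term. Sign turns were counted in the 80 named genes that did not pass, not in the other list members given above. Signs turned with the adipocyte term for Cd163 (0.064), Ckm (0.091), Cdh19 (0.17), Cd74 (-0.12), Tpx2 (-0.32), Birc5 (-0.24) and Tfeb (-0.21). With the endothelial term they turned for Clec9a (-0.30), Pecam1 (-0.73), Vwf (-0.14) and Tfeb (-0.034), and Pecam1 and Vwf are themselves part of that term. With treatment they turned for Cyp11a1 (-0.43), Birc5 (-0.087) and Pecam1 (-0.65). In the slope with treatment they turned for Cyp11a1 (-0.040), Adgre1 (-0.035) and Mitf (-0.063). Mitf also turned with 8 against 8 (-0.074), in the slope over 20 (-0.0077) and without Saline 9 or HDL 11 (range with 1 library left out -0.033 to 0.36). Causes were not tested. No paired analysis was possible because no animal number occurs in more than 1 treatment group.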
